A study of Mus musculus with 12 samples.

Results

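Interferon-stimulated genes and genes of the PYHIN family were examined in mouse liver. The list held 46 genes by symbol, and each is counted here, though not every one is named. Of these, 40 had a probe set annotated to that gene alone, against 12393 genes in the whole series. Each of the 40 is represented by 1 probe set, the one with the highest mean log2 signal over the 12 arrays, and every probe set of Mndal and of the Ifi20x genes is given as well. Ifi203, Ifi205 and Isg15 were represented only by probe sets shared with other genes, and Ddx58, Ifi44 and Xaf1 had no probe set in the annotation used.

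The arrays measured liver RNA of male mice, 6 weeks old, that carried a human alpha1-antitrypsin transgene under inducible, hepatocyte-specific control. Alpha1-antitrypsin is a protease inhibitor that hepatocytes secrete, and the Z mutant form misfolds and accumulates inside the cell's endoplasmic reticulum. Z on livers came from mice with the mutant transgene that received no doxycycline, and Z off livers from mice with the same transgene that drank water with 40 µg/mL of doxycycline from conception onward, which silenced it. M on and M off livers came from mice with the wild-type transgene, without and with the same doxycycline treatment. The sample labels call the M mice wild type, but they too carried the human gene. Each group had 3 arrays, labelled as biological replicates. Expression could not be told apart from the absence of doxycycline, since every expressing mouse went without the drug, and the Z form could not be told apart from its transgenic line. Strain and promoter are not given in the sources used here.

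Interferons are secreted alarm signals. Type I interferons bind a receptor made of Ifnar1 and Ifnar2, which leads a complex that contains STAT2 and IRF9 to enter the nucleus and switch on a broad set of antiviral genes, while interferon gamma acts through a receptor that contains Ifngr1. PYHIN proteins, encoded in a gene cluster on mouse chromosome 1, typically pair a pyrin domain with a HIN domain that can bind DNA, and several of them are induced by interferon. In liver, both hepatocytes and resident macrophages carry interferon receptors.

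Many interferon-stimulated promoters hold an interferon-stimulated response element, which the STAT2-containing complex and IRF proteins bind. Its core was searched as GAAANNGAAA on both strands of the RefSeq promoter windows (build GRCm38.p6, from 250 bases before to 50 bases after each start). A match was found for 20 of the 39 listed genes that have a window (51.3%), against 1079 of all 27025 genes (3.99%) and 1131 of all 32851 windows (3.44%). By role, the 3 PYHIN genes with a window all held a match, as did 8 of 12 antiviral effectors, 4 of 5 interferon-inducible GTPases and 4 of 8 genes of RNA sensing and modification. Among the 5 regulators it was found for Stat2, and none of the 3 receptors held it. Sequences are shown for Mndal and Stat2, the genes with the smallest p-values on the list, and for Igtp and Ifit1, whose 3 M on arrays lay above the M off arrays. The M on arrays also lay above the M off arrays for Stat2, Trim25, Ifi47 and Usp18. Trim25 and Ifi47 held no match, and Usp18 has no window. The sequences are the 250 bases before the start, except for Mndal. There the annotated gene reaches past the start used, and the match is given with 10 bases on each side. Capitals mark the match, which starts 36 bases before the start of Mndal, 222 before that of Stat2 and 34 before that of Igtp. In Stat2 and Ifit1 it lies on the opposite strand, and Ifit1 holds 2, the first of them 104 bases before the start. Mndal has 2 windows in RefSeq's promoters as used here, and the upstream one is shown. A match describes the sequence and says nothing of binding.

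Mndal (chr1:173880204-173880233, minus strand): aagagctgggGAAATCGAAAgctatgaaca
Stat2 (chr10:128270248-128270497, plus strand): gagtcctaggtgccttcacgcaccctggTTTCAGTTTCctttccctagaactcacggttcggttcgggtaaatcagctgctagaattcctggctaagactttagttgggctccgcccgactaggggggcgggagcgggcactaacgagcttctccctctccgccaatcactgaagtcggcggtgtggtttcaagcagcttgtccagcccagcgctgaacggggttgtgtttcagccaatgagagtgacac
Igtp (chr11:58199306-58199555, plus strand): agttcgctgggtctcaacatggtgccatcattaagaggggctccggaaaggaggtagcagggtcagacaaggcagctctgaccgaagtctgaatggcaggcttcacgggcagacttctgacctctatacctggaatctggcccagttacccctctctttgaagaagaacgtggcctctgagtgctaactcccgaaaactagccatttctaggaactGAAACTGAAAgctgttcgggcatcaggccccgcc
Ifit1 (chr19:34640639-34640888, plus strand): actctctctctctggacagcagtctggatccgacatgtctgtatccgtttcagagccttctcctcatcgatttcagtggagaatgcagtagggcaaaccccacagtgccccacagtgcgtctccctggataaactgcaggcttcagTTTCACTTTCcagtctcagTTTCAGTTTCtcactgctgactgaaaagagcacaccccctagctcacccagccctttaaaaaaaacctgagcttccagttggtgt

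Mndal (myeloid nuclear differentiation antigen like, a PYHIN gene) was the sole member that passed the test in any comparison. Its signal was close to 0 in Z off livers and many-fold higher in the other 3 groups. The first of its 2 probe sets, the brighter on average, gave 44.8, 23.1 and 99.8 signal units in Z on livers, against 3.1, 1.0 and 1.9 in Z off livers. The same probe set gave 72.8, 78.5 and 81.4 in M on livers, against 82.9, 76.3 and 84.6 in M off livers. All Z on arrays lay above all Z off arrays, whereas the M groups overlapped, and the Z on arrays differed among themselves more than either M group did. Group averages were 55.9 ± 39.5 in Z on livers, 2.00 ± 1.05 in Z off livers, 77.6 ± 4.38 in M on livers and 81.3 ± 4.38 in M off (SD, n = 3 each).

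On the second Mndal probe set the Z off average was again the lowest and the Z on average the next. It gave 38.2, 30.0 and 50.1 in Z on livers, against 6.1, 1.1 and 5.1 in Z off livers. In M on livers it gave 70.5, 65.4 and 62.8, against 85.0, 42.1 and 60.4 in M off livers. Here too the Z off arrays lay below every other array, and the Z on arrays lay below the M on arrays.

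Differences were tested with limma on log2 signals over all 22626 probe sets, and a probe set is called at a Benjamini-Hochberg adjusted p under 0.05. Mndal rose in Z on relative to Z off on its first probe set, with a log2 difference of 4.70 (SE 0.51, 95% interval 3.55 to 5.85, adjusted p = 0.0333). This was 1 of 40 genes called, against 0.0133% of all probe sets. The list was chosen with earlier results of these data known, so that count does not test the list. On the second probe set the difference was 3.57 (SE 0.57, interval 2.29 to 4.85), which did not pass (adjusted p = 0.210). Between M on and M off the 2 probe sets differed by -0.07 (interval -1.22 to 1.08) and 0.14 (interval -1.14 to 1.42), and neither was called. The difference between the Z and the M response was 4.77 (SE 0.73, adjusted p = 0.230) on the first and 3.43 (SE 0.81, adjusted p = 0.598) on the second, so that no difference in response passed the test.

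Between the lines, both Mndal probe sets passed the test, with lower signals in Z off livers than in M off livers. The log2 differences were -5.49 (SE 0.51, interval -6.64 to -4.34, adjusted p = 0.00832) and -4.21 (SE 0.57, interval -5.48 to -2.93, adjusted p = 0.0420). In the absence of doxycycline the line difference was smaller, -0.72 (interval -1.87 to 0.43, adjusted p = 0.858) and -0.78 (interval -2.05 to 0.50, adjusted p = 0.860) for Z on minus M on. Averaged over both doxycycline states, Z minus M was -3.11 on the first probe set (adjusted p = 0.0180) and -2.49 on the second (adjusted p = 0.0801). These contrasts share arrays and do not support one another. Because the Z off signals lie near 0, the size on the log2 scale depends on how dim signals are treated. With 16 added to each signal before taking log2, the first probe set differed by 1.86 between Z on and Z off and was no longer called (adjusted p = 0.136), and by -2.43 between Z off and M off.

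The Z on minus Z off call was kept with quantile normalization and with a variance trend. It was also lost with median centring (adjusted p = 0.0507), with the mean of both probe sets (0.0634) and when only those 2 groups were fitted (0.348), and Mndal lay under the median level, where a filter on level would leave it out. The Z off minus M off call was lost when only those 2 groups were fitted (0.126). Leaving out 1 array of either group gave 4.15 to 5.21 for Z on minus Z off, with adjusted p between 0.0216 and 0.154. The call was lost without the 2nd or 3rd Z off array and without the 1st or 3rd Z on array. For Z off minus M off the first probe set gave -5.88 to -5.06, with adjusted p between 0.0212 and 0.0575, and the call was lost without the 1st or the 3rd M off array. The second probe set kept its Z off minus M off call in 1 of 6 such fits (adjusted p between 0.0217 and 0.171). Under other settings it kept that call in 5 of 7, with adjusted p up to 0.313. The sign stayed the same in each of these fits.

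The other PYHIN probe sets were dim or shared. A probe set annotated to both Ifi205 and Ifi211 gave 31.4, 16.1 and 32.9 in Z on livers, against 4.1, 7.0 and 8.0 in Z off livers. In M on livers it gave 20.8, 45.3 and 32.4, against 70.4, 29.8 and 30.8 in M off livers. Its Z off arrays were again below all the others, but neither Z on minus Z off (2.06, adjusted p = 0.533) nor Z off minus M off (-2.71, SE 0.46, adjusted p = 0.110) passed. This probe set and the first of Mndal have names ending in x_at, which denotes, in the array maker's scheme, probes that may also bind related sequences, so signal of one PYHIN gene in the probe set of another cannot be told apart here.

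Another, annotated to Mndal, Ifi204, Ifi205 and Ifi211 together, gave 16, 5.3 and 7.1 in Z on livers, against 18, 0.5 and 6.7 in Z off livers. It gave 9.9, 14.1 and 14.9 in M on livers, against 16.4, 17.3 and 18.3 in M off livers. The Z off arrays did not stand apart on it, and Z off minus M off was -2.14 (adjusted p = 0.682). Ifi204 itself stayed under 8 on all arrays: 1.5, 0.5 and 6.6 in Z on livers, 2.8, 0.4 and 1.5 in Z off livers, 4.7, 7.3 and 1.4 in M on livers, and 1.6, 0.4 and 1.5 in M off livers. At that level no difference could be resolved.

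Ifi203 appears on 3 probe sets that are also annotated to a pseudogene and to unnamed loci. One of them gave 25, 24.8 and 27.0 in Z on livers, against 20.9, 5.8 and 7.6 in Z off livers. It gave 45.1, 13.5 and 23.3 in M on livers, against 15.7, 18.2 and 20.1 in M off livers, and the Z on minus Z off difference of 1.39 did not pass (adjusted p = 0.724). On another the Z on arrays gave 37.2, 57.8 and 43.5 and the Z off arrays 2.9, 74.1 and 29.2, while the M on arrays gave 56.4, 72.4 and 51.5 and the M off arrays 170.9, 10 and 25. The last gave 22.8, 3.2 and 14.7 in Z on livers, 5.5, 5.2 and 19.5 in Z off livers, 30.0, 21.7 and 5.0 in M on livers, and 5.1, 7.0 and 5.2 in M off livers. Replicates on these 2 differed as much as the groups.

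**Figure D1:**
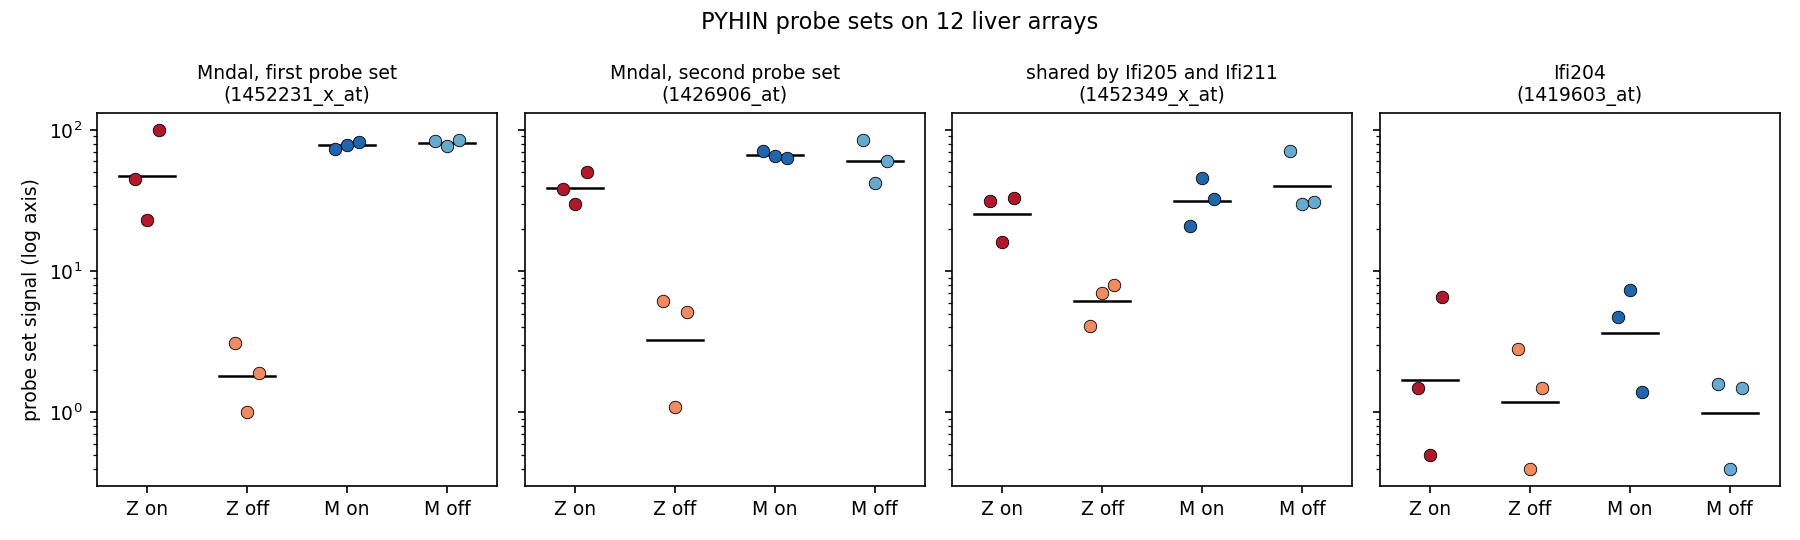
Signals of 4 PYHIN probe sets on the 12 arrays (log axis, signal units), with 1 point per array and a line at the geometric mean of each group of 3. In both Mndal panels and in the shared Ifi205 and Ifi211 panel the Z off arrays lie below the other groups, and Ifi204 stays under 8 throughout.

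Of the other genes of the family on a wider list, 3 of 11 were measured and none was called. Ifi209, which neighbours Mndal, gave 45.7, 15.8 and 30.6 in Z on livers, 13.7, 27.6 and 14.0 in Z off livers, 43.2, 39.6 and 26.6 in M on livers, and 60.6, 14.2 and 20.9 in M off livers. Ifi202b ranged from 1.5 to 28.8 and Aim2, a sensor of cytosolic DNA that triggers an inflammasome, from 1.1 to 14.4, with overlapping groups. The 10 measured genes on either side of Mndal on chromosome 1, a set chosen after the Mndal values were seen, held no call in any comparison by limma. In Z on against Z off, 3 of these 20 had an unadjusted p under 0.05, against 6.29% of all probe sets. These were Apcs, the gene of serum amyloid P (1.16 on the log2 scale), Fh1, the fumarate hydratase gene (0.51), and Sdccag8 (-2.54), whose mean signal was 9.90. In Z off against M off, 1 of the 20 had an unadjusted p under 0.05 (Opn3, an opsin, 0.60 on the log2 scale), against 7.73% of all probe sets.

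Markers of other cells were read beside Mndal, which is named for myeloid cells. The summed signal of 8 macrophage and Kupffer cell markers ranged from 1826 to 2071.5 in Z on livers, 1866 to 2102 in Z off livers, 1633.5 to 2181.8 in M on livers and 1585 to 1895 in M off livers, with no group apart. Monocyte markers (2 of 3 measured) summed to 98.7 to 148 in Z on livers and 84.0 to 116.5 in Z off livers, against 119 to 127 in M on livers and 86.0 to 151 in M off livers. The monocyte sums in Z off livers lay below those in M on livers, and the other pairs of groups overlapped; the part of this in the Mndal result was not tested. Sums for T and NK cells (9 of 10), B cells (3 of 5), dendritic cells (3 of 5), neutrophils (4 of 5) and hepatocytes (5 of 5) overlapped between all groups. The sum of erythroid markers (3 of 5 measured) did set the Z off group apart, at 159 to 273 in Z on livers and 1153 to 1500 in Z off, against 253 to 305 in M on livers and 282.5 to 335 in M off livers. Most of that sum was Alas2, the erythroid enzyme that starts haem synthesis, which gave 210.7, 177.1 and 136.5 in Z on livers, against 1456.1, 1259.1 and 1118.8 in Z off livers. Slc4a1 averaged 20.9 in Z off livers, against 21.3 in Z on, 29.2 in M on and 26.2 in M off livers. Hba-a1 averaged 18.2 in Z off livers, against 24.5 in Z on, 11.9 in M on and 3.33 in M off livers. Neither set the Z off group apart. The part of Alas2 in the Mndal result was not tested. In whole liver, fewer cells of a type and less RNA per cell cannot be told apart.

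Receptor genes were expressed in every group and none was called. Ifnar2, the chain that binds type I interferon with high affinity, averaged 634 ± 41.9 in Z on livers, 669 ± 46.9 in Z off livers, 695 ± 45.1 in M on livers and 710 ± 32.3 in M off livers (SD, n = 3 each). Ifnar1, its partner chain, averaged 156 ± 12.5 in Z on livers, 155 ± 24.5 in Z off livers, 188 ± 30.6 in M on livers and 157 ± 11.02 in M off livers. On the probe sets used for these 2 genes, the differences between on and off ran from -0.08 to 0.25, and each 95% interval lay within 1 log2 unit of 0. A further, dimmer Ifnar2 probe set left wider intervals. It gave -1.14 (interval -2.84 to 0.55) for Z on minus Z off and -0.85 (interval -2.55 to 0.84) for M on minus M off, and neither was called. Ifngr1, the ligand-binding chain for interferon gamma, averaged 99.0 ± 24.7 in Z on livers, 119 ± 42.2 in Z off livers, 79.4 ± 23.5 in M on livers and 86.5 ± 12.3 in M off livers.

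Among the regulators, Stat2, the transcription factor particular to type I and type III interferon signalling, had the smallest p-values on the list after Mndal. The first of its 2 probe sets gave 52.0, 59.1 and 73.8 in Z on livers, against 109.8, 81.7 and 83.0 in Z off livers. It gave 67, 70.2 and 71.5 in M on livers, against 35.9, 40.4 and 32.5 in M off livers. The M on arrays lay above the M off arrays, the Z on arrays lay below the Z off arrays, and the Z off arrays were the highest and the M off arrays the lowest of all. The log2 difference was -0.57 (SE 0.20) for Z on minus Z off and 0.94 (SE 0.20) for M on minus M off, and limma called neither (adjusted p = 0.706 and 0.408).

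The Z response of Stat2 minus its M response was -1.52 (SE 0.28, 95% interval -2.14 to -0.90, adjusted p = 0.297). Z off minus M off was 1.33 (SE 0.20, interval 0.89 to 1.77), just short of the threshold (adjusted p = 0.0655). Under other settings that last difference was called in 3 of 8. These were 16 added before log2 (adjusted p = 0.0414), a variance trend (0.0363) and only probe sets above the median level (0.00731). In the rest its adjusted p reached 0.301. Of the fits without 1 array, 0 of 6 called it (adjusted p between 0.140 and 0.227). The second Stat2 probe set gave 57.4, 34.9 and 46.7 in Z on livers, against 108.4, 50.6 and 86.3 in Z off livers. It gave 76.5, 58.7 and 53.2 in M on livers, against 60.9, 40.5 and 41.9 in M off livers. Its signs were the same, but its groups overlapped, with -1.18 for the difference in response (adjusted p = 0.933) and 0.73 for Z off minus M off (adjusted p = 0.640).

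Usp18, a protease that removes ISG15 from proteins and dampens signalling at the type I receptor, gave 42.5, 44.0 and 41.3 in Z on livers, against 50.4, 47.0 and 74.2 in Z off livers. It gave 77.2, 103.0 and 72.5 in M on livers, against 69.0, 48.7 and 51.1 in M off livers. Its Z on arrays were the lowest of the 4 groups, and its M on arrays were above all others apart from the Z off array at 74.2. Z on minus M on was -0.97 (SE 0.24, interval -1.49 to -0.44, adjusted p = 0.427), and M on minus M off was 0.58 (SE 0.24, adjusted p = 0.924).

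On the probe set used for each, Irf1, Irf7, Irf8 and Irf9 had overlapping groups in every comparison. Irf1, which drives interferon gamma targets, averaged 270 ± 36.3 in Z on livers, 236 ± 7.40 in Z off livers, 233 ± 22.9 in M on livers and 259 ± 21.1 in M off livers. Irf7, the amplifier of type I interferon production, averaged 126 ± 30.1 in Z on livers, 116 ± 33.6 in Z off livers, 164 ± 77.0 in M on livers and 134 ± 20.3 in M off livers. Irf8, a factor of myeloid cells, averaged 41.9 ± 13.3 in Z on livers, 41.0 ± 4.80 in Z off livers, 54.2 ± 19.2 in M on livers and 46.0 ± 5.48 in M off livers. A second, dimmer Irf8 probe set gave 23.2, 25.8 and 26.3 in Z on livers, against 7.1, 6.5 and 5.4 in M on livers, at 1.99 for Z on minus M on (adjusted p = 0.537), opposite in sign to the -0.36 of the first. Irf9, the DNA-binding partner of STAT2, averaged 62.6 ± 7.85 in Z on livers, 64.8 ± 8.93 in Z off livers, 51.4 ± 28.8 in M on livers and 58.9 ± 10.8 in M off livers. Over the 6 regulators the median log2 difference was -0.03 for Z on minus Z off, 0.20 for M on minus M off and -0.25 for Z on minus M on.

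Genes of RNA sensing and modification numbered 8 with their own probe set, and none was called. Trim25, a ubiquitin ligase that acts on the RIG-I pathway, gave 653.9, 657.8 and 490.6 in Z on livers, against 604.0, 522.4 and 577.6 in Z off livers. In M on livers it gave 758.0, 771.8 and 901.9, against 556.6, 523.9 and 583.8 in M off livers. The M on arrays lay above all the other arrays, with differences of 0.54 (SE 0.18, adjusted p = 0.792) from M off and of -0.44 (adjusted p = 0.684) for Z on minus M on. Another Trim25 probe set also had its M on arrays (521.0, 443.2 and 500.9) above the Z on arrays (259.3, 342.8 and 310.3) and the M off arrays (346.3, 340.1 and 356.3), at 0.49 for M on minus M off (adjusted p = 0.889).

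Oasl1, a protein related to the oligoadenylate synthetases, gave 49.2, 48.5 and 88.5 in Z on livers, against 70.6, 83.9 and 61.8 in Z off livers. It gave 49.9, 38.3 and 37.6 in M on livers, against 50.9, 47.9 and 28.8 in M off livers. The Z off arrays lay above the M off arrays (0.79, adjusted p = 0.599), and the Z on arrays overlapped the M on arrays. Adar, which edits adenosine in double-stranded RNA, gave 40.4, 68.0 and 56.6 in Z on livers, 52.0, 64.8 and 50.7 in Z off livers, 93.9, 74.8 and 63.2 in M on livers, and 72.7, 69.7 and 62.6 in M off livers. Its Z minus M difference averaged over both states was -0.40 (adjusted p = 0.522). Ifih1, the sensor of long double-stranded RNA known as MDA5, averaged 194 ± 9.90 in Z on livers, 189 ± 18.7 in Z off livers, 239 ± 31.2 in M on livers and 201 ± 36.2 in M off livers. Over the 8 genes the log2 differences ran from -1.09 to 0.15 for Z on minus Z off and from -0.26 to 0.54 for M on minus M off.

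Of 14 antiviral effectors, 13 had their own probe set and none was called. Ifit1, which binds foreign RNA lacking the host cap, gave 54.0, 36.4 and 41.8 in Z on livers, against 55.4, 38.5 and 54.7 in Z off livers. It gave 63.3, 77.7 and 60.7 in M on livers, against 42.4, 50.4 and 50.8 in M off livers. The M on arrays lay above all the others, by 0.49 over M off (SE 0.22, adjusted p = 0.974), and Z on minus M on was -0.62 (SE 0.22, adjusted p = 0.610). Samhd1, which depletes nucleotides needed by viruses, gave 68.3, 68.7 and 61.4 in Z on livers, against 109.5, 66.0 and 93.3 in Z off livers. It gave 83.3, 103.7 and 95.8 in M on livers, against 73.6, 65.2 and 87.4 in M off livers. Z on minus M on was -0.51 (adjusted p = 0.719), and on its 3 further probe sets the same 2 groups overlapped.

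Isg20, an RNA exonuclease, gave 38.5, 22.1 and 32.9 in Z on livers, against 44.4, 49.3 and 54.3 in Z off livers. In M on livers it gave 43.9, 5.4 and 31.4, against 46.4, 60.3 and 53.0 in M off livers. In both lines the arrays without doxycycline lay below those with it, at -0.70 (SE 0.64, adjusted p = 0.898) in Z and -1.44 (SE 0.64, adjusted p = 0.964) in M livers. One M on array, at 5.4, lay far below the other 2. Isg15, the ubiquitin-like modifier, is represented by a probe set shared with Gm9706, which gave 66.8, 37.3 and 88.6 in Z on livers, 87.7, 90.1 and 87.5 in Z off livers, 80.5, 99.5 and 69.9 in M on livers, and 96.6, 78.4 and 54.5 in M off livers. Ifitm3, which blocks entry of enveloped viruses, averaged 2737 ± 446 in Z on livers, 3140 ± 519 in Z off livers, 3069 ± 167 in M on livers and 2754 ± 464 in M off livers. Bst2, which tethers budding virus to the cell surface, averaged 407 ± 41.1 in Z on livers, 468 ± 45.8 in Z off livers, 491 ± 83.6 in M on livers and 495 ± 41.7 in M off livers. Over the 13 effectors the median difference was -0.09 for Z on minus Z off and -0.02 for M on minus M off. Single genes ran from -1.09 (Ifit2) to 1.10 (Mx2) for Z on minus Z off, both dim. For M on minus M off they ran from -1.44 (Isg20) to 0.54 (Mx1).

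The interferon-inducible GTPases act against intracellular microbes, and none of the 6 was called. Igtp gave 771.6, 711.5 and 589.1 in Z on livers, against 475.7, 415.3 and 712.0 in Z off livers. It gave 773.8, 987.9 and 807.2 in M on livers, against 659.7, 529.0 and 495.9 in M off livers. The M on arrays lay above every other array of the series, and M on minus M off was 0.61 (SE 0.24, adjusted p = 0.897). The summed signal of sinusoidal endothelium markers (6 of 6 measured) also set the M on livers apart, but with the lowest sums. These were 706.5 to 906 in Z on livers and 674 to 871 in Z off livers, with 588 to 651 in M on livers, against 689 to 741 in M off livers. Stab2, Clec4g and Lyve1 averaged lowest in M on livers, whereas Stab1, Kdr and Pecam1 did not. Stab1 averaged 92.6 in M on livers, against 85.2 in Z on and 85.4 in Z off livers. Kdr averaged 90.1 in M on livers, against 87.0 in Z on and 78.8 in Z off livers. The part of endothelium markers in the values of Trim25, Ifit1 and Igtp was not tested. On the probe set used, Iigp1 averaged 2680 ± 331 in Z on livers and 2578 ± 346 in Z off livers. It averaged 2680 ± 667 in M on livers and 3415 ± 675 in M off livers. A second, dimmer Iigp1 probe set gave 724.3, 748.4 and 702.5 in Z on livers, below every other array. Z on minus M on was -0.40 on it (limma adjusted p = 0.713), against 0.03 on the first. A second Gbp2 probe set gave 21.7, 27 and 17.9 in M on livers, against 7.3, 6.5 and 9.8 in M off livers. M on minus M off was 1.498 on it (limma adjusted p = 0.889), against -0.14 on the first. Ifi47 gave 173.9, 146.2 and 378.0 in Z on livers, 215.0, 298.2 and 316.0 in Z off livers, 195.3, 274.2 and 254.8 in M on livers, and 188.8, 155.1 and 194.5 in M off livers, so that the M off arrays lay below both the M on and the Z off arrays. Over the 6 genes the median was -0.14 for Z on minus Z off and 0.17 for M on minus M off.

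Of the remaining interferon-stimulated genes, Parp14, a mono-ADP-ribosyltransferase, gave 83.4, 89.6 and 115.6 in Z on livers, against 74.5, 67.3 and 83.2 in Z off livers. It gave 166.1, 108.7 and 89.8 in M on livers, against 133.4, 92.1 and 108.2 in M off livers. The Z off arrays were the lowest of the 4 groups, with -0.56 for Z off minus M off (adjusted p = 0.663). Ifi35 averaged 158 ± 3.78 in Z on livers, 175 ± 6.63 in Z off livers, 164 ± 28.04 in M on livers and 159 ± 13.9 in M off livers.

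**Figure D2:**
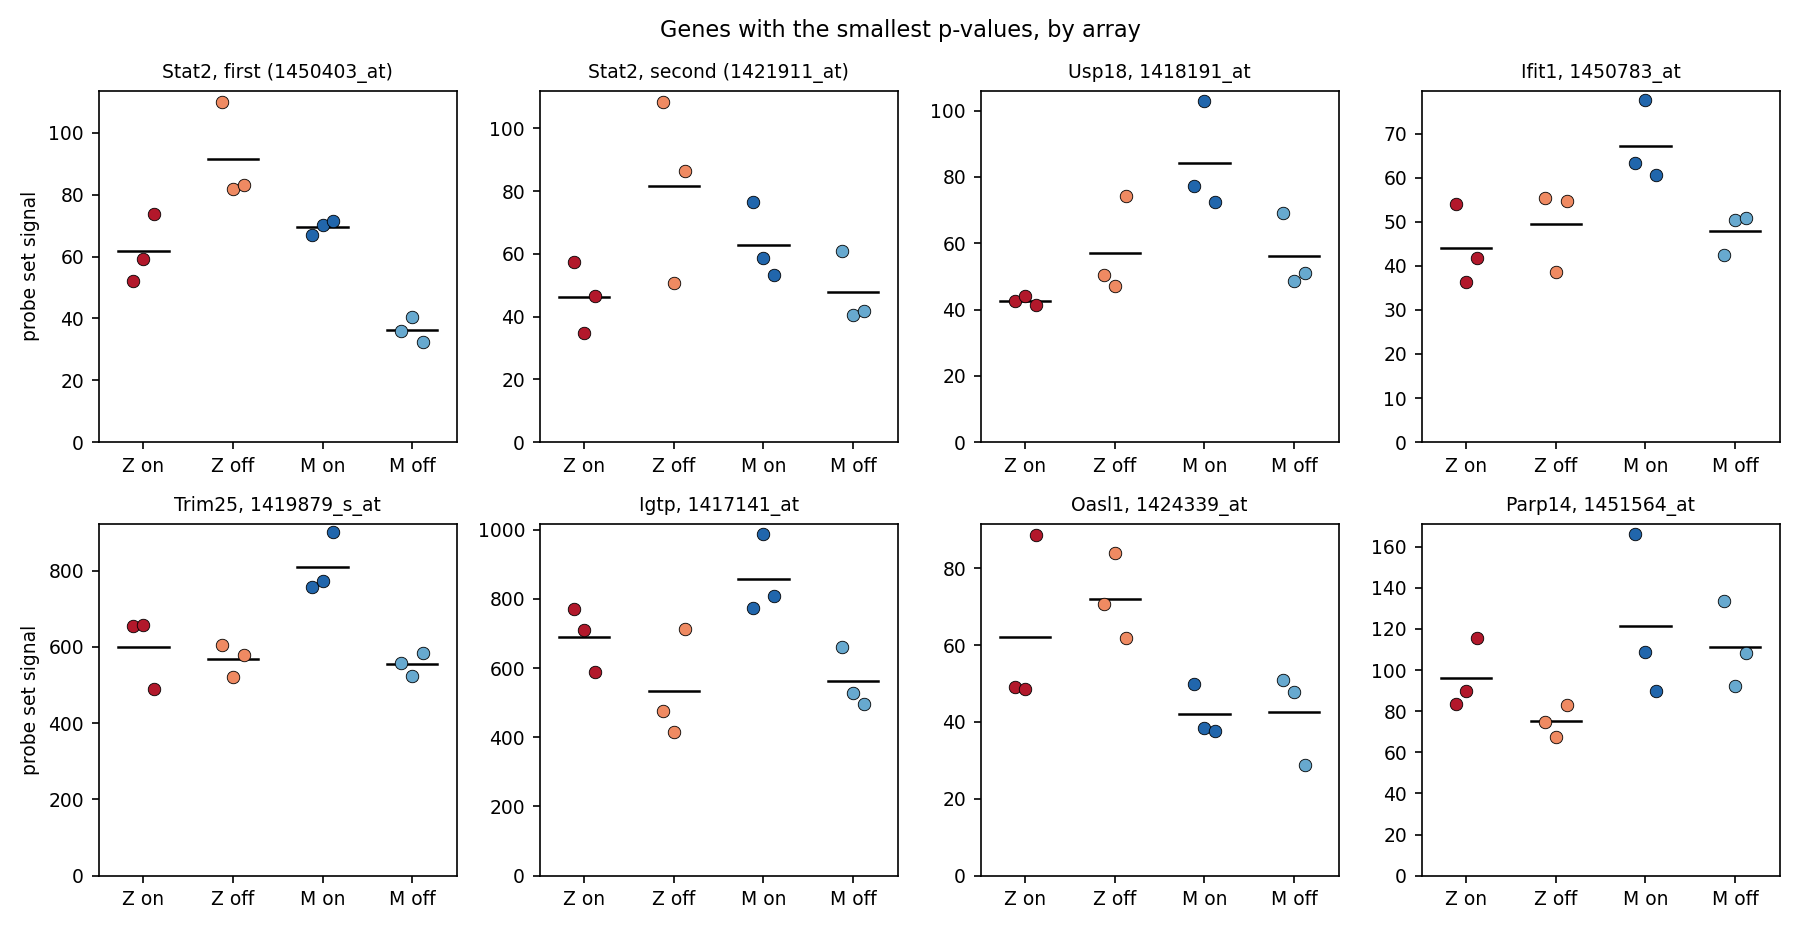
Signals (linear axis from 0, signal units) of 8 probe sets of members with small p-values, with 1 point per array and a line at the mean of each group of 3. Stat2 on its first probe set has the Z off arrays highest and the M off arrays lowest, and Trim25, Igtp and Ifit1 have the M on arrays highest.

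Taking the 40 genes one comparison at a time, Z on minus Z off was above 0 for 18 and below 0 for 22, with a median of -0.05, against -0.03 over all probe sets. Mndal was the gene called, against 0.0133% of all probe sets in either direction and 0.00442% in its own. Since the list was chosen with earlier results of these data known, counts of called members do not test it. Mndal and Stat2 had an unadjusted p under 0.05, against 6.29% of all. Groups did not overlap for 8 members, against 11.8% of all probe sets. Mndal and Parp14 were the higher ones, and Stat2, Usp18, Oasl2, Ifit2, Isg20 and Ifi35 the lower ones. The 95% interval lay within 1 log2 unit of 0 for 26 of the 40.

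M on minus M off was above 0 for 23 and below 0 for 17 members, with a median of 0.05, against -0.01 over all probe sets. No member was called by limma, as was 0% of all probe sets, and 5 had an unadjusted p under 0.05 (Stat2, Trim25, Igtp, Usp18 and Isg20), against 5.18% of all. No member was called under any of the other 8 settings tried. In 6 members the M on arrays lay above the M off arrays without overlap (Stat2, Usp18, Trim25, Ifit1, Igtp and Ifi47), against 5.23% of all probe sets, and in Isg20 and Ifitm2 they lay below, against 5.32%. The interval lay within 1 log2 unit of 0 for 24 members.

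The difference between the Z and the M response had a median of -0.16 over the 40 genes, against -0.02 over all probe sets. Again no member was called by limma, as was 0% of all probe sets, or under any of the other 7 settings, and 4 had an unadjusted p under 0.05 (Mndal, Stat2, Usp18 and Samhd1), against 5.18% of all. With 3 arrays a group these differences were measured loosely, since the interval lay within 1 log2 unit of 0 for 10 of the 40 genes. Further probe sets of the 40 genes, 15 in all, had the sign of the probe set used in 6 cases. For Z on minus Z off and for M on minus M off the sign was shared in 9 each. For Z on minus M on and for Z minus M over both states it was shared in 10 each, and for Z off minus M off in 8.

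Z on minus M on was below 0 for 26 and above 0 for 14 members, with a median of -0.15, against 0.00 over all probe sets. No member was called by limma, against 0.00884% of all probe sets, and 4 had an unadjusted p under 0.05 (Usp18, Ifit1, Trim25 and Samhd1), against 6.85% of all. No member was called under the other 8 settings. In Usp18, Ifih1, Trim25, Ifit1, Samhd1 and Igtp the Z on arrays lay below the M on arrays without overlap, against 6.02% of all probe sets, and in no member did they lie above, against 6.07%. This comparison and M on minus M off use the same M on arrays, so the 4 genes found in both are not independent observations.

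Z off minus M off was above 0 for 21 and below 0 for 19 members, with a median of 0.02, against 0.03 over all probe sets. Mndal was called, against 0.0707% of all probe sets in either direction, 0.0265% lower and 0.0442% higher. Groups did not overlap for 5 members, against 15.1% of all probe sets. In Stat2, Oasl1 and Ifi47 the Z off arrays lay above the M off arrays without overlap, against 8.36% of all probe sets, and in Mndal and Parp14 below, against 6.76%. For Z minus M averaged over both states, Mndal was again called, against 0.0884% of all probe sets in either direction and 0.0442% each way, and 6 members had an unadjusted p under 0.05, against 9.09% of all. The median was -0.09, against 0.02 over all probe sets. In no member did the Z arrays all lie above or all below the M arrays, against 0.38% and 0.544% of all probe sets.

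**Figure D3:**
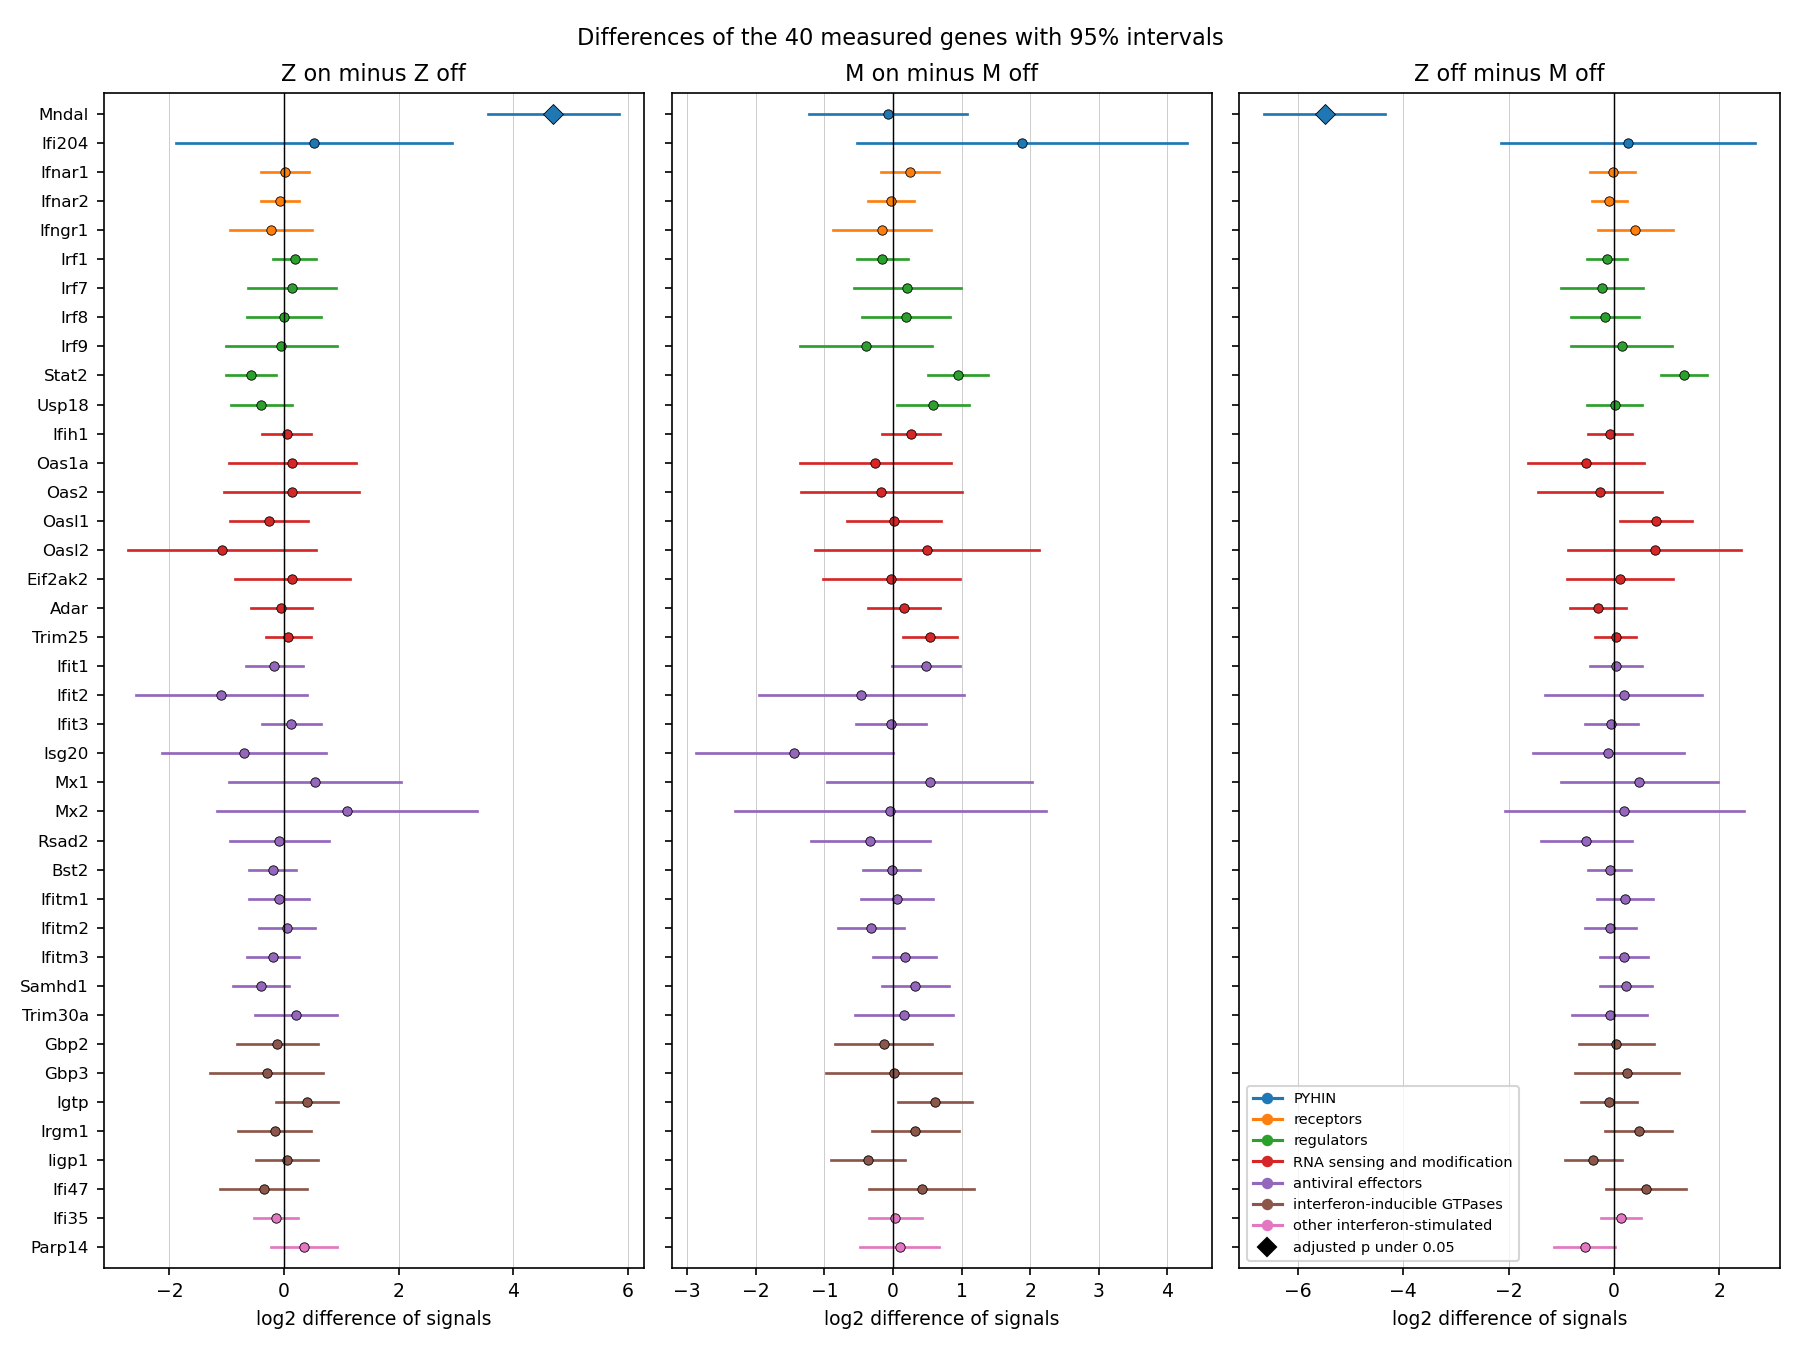
Log2 differences of the 40 genes with 95% intervals, coloured by role, for the response of Z livers, the response of M livers (each on minus off) and Z off minus M off. The diamonds mark adjusted p under 0.05, which Mndal alone reached, at 4.70 and -5.49.

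Array by array, the median deviation of the 40 genes from their mean over the 12 arrays was -0.10, -0.09 and -0.03 in Z on livers, against 0.01, -0.12 and 0.08 in Z off livers. It was 0.14, 0.17 and -0.0017 in M on livers, against 0.09, -0.10 and -0.05 in M off livers. The Z on arrays all lay below the M on arrays, and every other pair of groups overlapped. Over all probe sets the same median ran from -0.02 to 0.10. The 1st M off array held the highest value of its group for 22 of the 40 genes, against 45.2% of all probe sets, and the 2nd M on array for 19 of 40, against 38.3%.

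**Figure D4:**
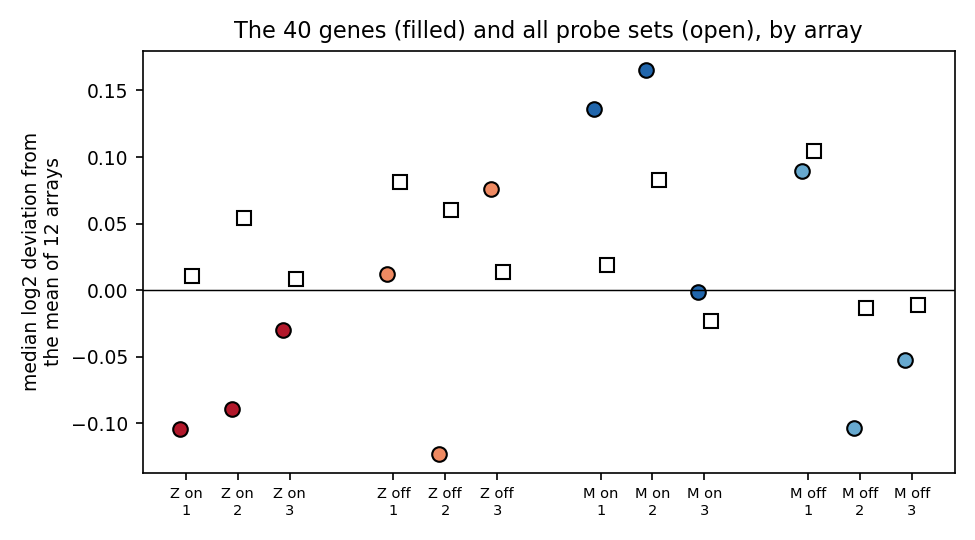
Median log2 deviation from the mean of the 12 arrays, for the 40 genes (filled circles, coloured by group) and for all probe sets (open squares), 1 of each per array. The 40 genes range from -0.12 to 0.17, with all Z on arrays below all M on arrays and every other pair of groups overlapping.

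A wider list of 102 interferon pathway genes outside the 40, of which 69 were measured, held no call by limma in any comparison. The number with an unadjusted p under 0.05 was 2 of 69 for Z on minus Z off, against 6.29% of all probe sets, and 3 of 69 for M on minus M off, against 5.18%. It was 1 of 69 for Z on minus M on, against 6.85%, and 5 of 69 for Z off minus M off, against 7.73%. The list's medians were 0.00, 0.08, -0.02 and 0.03 in the same order. Irf5, a factor that drives inflammatory cytokines, gave 64.3, 56.5 and 42.2 in Z on livers, against 75.4, 90.3 and 80.6 in Z off livers (-0.61, adjusted p = 0.724). Psmb10, a subunit of the immunoproteasome, gave 313.1, 336.7 and 314.6 in Z on livers, against 231.4, 209.6 and 261.6 in Z off livers (0.46, adjusted p = 0.745). Rtp4, an interferon-induced chaperone of receptors, gave 103.3, 116.0 and 126.6 in M on livers, against 178.2, 169.9 and 178.0 in M off livers (-0.61, adjusted p = 0.724). Rtp4 thus lay on the other side from Stat2, Usp18 and Ifit1 in the M line. Ifng, the gene of interferon gamma, stayed dim, at 3.6 to 6.5 in Z on livers, 5.3 to 33.7 in Z off livers, 2.7 to 17.1 in M on livers and 0.8 to 5.4 in M off livers.

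Across the series, the median signal of an array was 38.8 to 47.2, and correlations of log2 signals between arrays over the brighter probe sets were 0.924 to 0.976. The ratio of the 3 prime to the 5 prime beta-actin probe set, a sign of RNA integrity, was 2.44 to 5.16 in Z on livers and 2.18 to 2.53 in Z off livers, against 3.09 to 4.38 in M on livers and 2.72 to 3.89 in M off livers. Its range was thus lowest in Z off livers, where Mndal was lowest and Stat2 highest, but overlapped that of Z on livers. The same ratio for Gapdh was 1.23 to 1.92 in Z on and 1.09 to 1.49 in Z off livers. It was 1.46 to 1.60 in M on and 1.48 to 1.54 in M off livers, so the Z off range overlapped every other. The part of RNA integrity in those results was not tested. Stellate cell markers (5 of 5 measured) summed to 976 to 1299 in Z on livers and 1603 to 1849 in Z off livers, against 1019.5 to 1570 in M on livers and 1724 to 1849 in M off livers. The sums were lower without doxycycline in both lines, as were the averages of Dcn, Col3a1 and Reln. Lrat, however, averaged 13.5 in M on against 9.20 in M off livers, and Des 28.1 in Z on against 25.6 in Z off livers. Isg20 also lay lower without doxycycline in both lines, and its relation to these sums was not tested. Mean signals of 4 of the 40 genes, Ifi204 and Ifit2 among them, were under 16, where 28.4% of all values lay, and differences there are the least certain.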

How the data were processed

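Total RNA of mouse livers was hybridised to 1-colour Affymetrix arrays. The deposited table holds intensities, on a linear scale, for each probe set and array. The submitters' processing notes name RMA, but RMA gives log2 values of equal distribution, whereas these intensities are linear, with a trimmed mean of 150.07 to 150.08 on each array (2% removed from each end) and different medians. Which software made them is not stated in the labels, and detection calls were not used here.

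The members and gene lists were chosen with earlier results of these data known. The table held 22690 probe sets, of which 64 controls were left out. Of 22626 tested, 20380 had 1 symbol, 691 several and 1555 none in the platform annotation. Signals were converted to log2 after 1 value was raised to 0.1, with no filter and no further normalization. One mean per group was fitted to 12 arrays with limma 3.58.1 in R 4.3.3 (lmFit, eBayes, two-sided), with Benjamini-Hochberg adjustment over 22626 probe sets, and the step was tested on simulated data. The p-values rest on a spread between livers that was pooled over all 4 groups and moderated across probe sets. They do not measure the spread of the 2 compared groups alone. On the first Mndal probe set the SE was therefore 0.51 for Z on minus Z off and for M on minus M off alike. Having 3 livers a group limits the precision.

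Values are given in full for Mndal and Ifi20x probe sets, called members and up to 4 members per contrast with the smallest p, and up to 3 wider pathway genes per contrast are named; Adar, Ifi47 and Ifi209 were added after their values were seen. Alternatives were quantile normalization, median centring, 16 added before log2, trended robust variances, a filter at the median level, only the groups compared, a replicate block, the mean of a gene's probe sets, and leaving out each array. Promoter sequences are RefSeq's (GRCm38.p6).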

Additional observations from a re-analysis of the deposited data

Results flagged for a closer look

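Stat2 differed in opposite directions in the lines on its first probe set, while on its second the on and off arrays overlapped in both lines. On the first, all 3 Z on arrays lay below all Z off arrays, while all 3 M on arrays lay above all M off arrays. The Z response minus the M response was -1.52 on the log2 scale, which did not pass across all probe sets (limma adjusted p = 0.297).

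Usp18 also differed in opposite directions, with every Z on array below every Z off array and every M on array above every M off array. Its difference in response was -0.98 (limma adjusted p = 0.933). Both genes were picked for this pattern from the 40, and its share over all probe sets was not counted. Taken singly, Z on lay below Z off in 6.61% of all probe sets and M on above M off in 5.23%, without overlap.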

How the results depend on the processing

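Mndal kept its direction under every setting tried for Z on minus Z off and for Z off minus M off, though not always its call. For Z on minus Z off, the count of 1 called member became 0 with median centring (adjusted p = 0.0507), 16 added before log2 (0.136), the mean of all probe sets (4.14, 0.0634), only the groups compared (0.348) and probe sets above the median level, where Mndal was not tested. For Z off minus M off the count was 0 with only the groups compared (0.126), and 2, Mndal and Stat2, with 16 added or a variance trend. Among the 30 members above the median level it was 1, Stat2. For Z minus M over both states it was 0 above the median level. Leaving out 1 array gave 0 to 1 called members in these 3 comparisons and 0 in the others, and for the last the call was lost without any of the 3 M off arrays, the 2nd or 3rd M on array or the 1st Z on array.

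The replicate number was tried as a block. Arrays of the same number did not deviate together (18 pairs, median r 0.018, with 6 of 12 arrays correlating best with their own number), so the numbers were not taken to pair the mice. With the replicate block, members called in Z on minus Z off were 0 (Mndal adjusted p = 0.0535), and probe sets called were 1, 0, 6 and 12 for Z on minus Z off, Z on minus M on, Z off minus M off and Z minus M over both states.

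Probe sets called in Z on minus Z off (3) were 1 with median centring, 16 added or above the median level, 0 with only the groups compared and 8 with a variance trend, and 2 to 5 without 1 array. In M on minus M off (0) they were 2 with quantile normalization, 5 with centring, 3 with 16 added, 8 with a trend and 2 above the median level, and 0 to 2 without 1 array. For the difference in response (0) they were 1 with centring, 16 added or the level filter and 2 with a trend, and 0 to 2 without 1 array. In Z on minus M on (2) they were 9 with quantile normalization, 10 with 16 added, 22 with a trend, 20 above the median level and 0 with only the groups compared, and 0 to 5 without 1 array. In Z off minus M off (16) they were 51 with a trend, 33 above the median level and 0 with only the groups compared, and 1 to 6 without 1 array. For Z minus M over both states (20) they were 41 with 16 added, 110 with a trend and 87 above the median level, and 7 to 18 without 1 array. The causes were not tested.

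The members' median in Z minus M over both states was 0.0034 with the mean of all probe sets. Without 1 array the medians ran from -0.079 to 0.0093 for Z on minus Z off, -0.0044 to 0.17 for M on minus M off, -0.26 to -0.088 for the difference in response, -0.18 to -0.11 for Z on minus M on, -0.046 to 0.054 for Z off minus M off and -0.11 to 0.037 for both states, where the change of sign came without the 1st M off array. Signs turned for Ifi204, which is dim, at -0.27 without the 2nd Z off and -0.46 without the 3rd Z on array (Z on minus Z off, range -0.46 to 1.40), -0.38 without the 2nd M off and -0.35 without the 1st Z off array (Z off minus M off, range -0.38 to 1.05), and 0.030 without the 2nd Z on array (both states, range -0.90 to 0.030). For M on minus M off, Mndal turned to 0.037 with the mean of its probe sets and to -0.12 on the second probe set without the 2nd M off array (range -0.12 to 0.39). With 3 arrays a group and no detection calls, small differences and dim probe sets could not be resolved.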
